A study of Drosophila melanogaster with 3 samples.

Results

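The 8 Hox genes of the fly are lab, pb, Dfd, Scr and Antp of the Antennapedia complex and Ubx, abd-A and Abd-B of the bithorax complex, both on chromosome arm 3R. Their binding by Deadpan was read from lists of ChIP-seq peaks (chromatin immunoprecipitation with sequencing). An entry was taken as a Hox entry when its summit lay inside one of the 8 genes or within 20 kb of it. The list that the authors cut by reproducibility between replicates (irreproducible discovery rate, IDR) held 23 such peaks of 5164, called IDR peaks here. It holds the 5164 strongest entries of the pooled list, made from the replicates together. An IDR peak could thus be weak or absent in a single replicate, as given for each peak below. The pooled list held 158 Hox entries of 30000, and the lists of replicates 1, 2 and 3 held 160, 180 and 161 of 30000 each.

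The chromatin came from whole embryos of both sexes, collected over 0-24 hours from the strain dpn-MiMIC-GFP. An eGFP exon placed in an intron of dpn gives a fusion of Deadpan with eGFP made from the gene's own locus. The fusion was precipitated with an antibody against GFP, although the labels give the antibody as dpn. All 3 libraries are biological replicates of the same group, with no other genotype, treatment or time point, so no contrast between samples was possible and no p-value is given. Each embryo collection mixed embryonic stages and all tissues, so a peak cannot be assigned to a cell type. The lists hold no read counts, so the depth behind each peak is unknown. At dpn itself, no IDR peak lay within 1000 bp of the start site, and 2 lay within 20 kb, the stronger at rank 1803.

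Hox genes encode homeodomain transcription factors that give each segment its identity from head to tail. They are transcribed in overlapping domains whose order along the body follows the gene order in the complexes. Their expression depends on enhancers spread through long introns and intergenic DNA, on Polycomb and Trithorax group proteins that keep it off or on, and on boundary elements that separate the regulatory domains. In the nervous system they also decide how long neuroblasts divide and which lineages persist. Deadpan belongs to the Hes family of transcriptional repressors and is known as a neuroblast factor.

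Peaks are named here after the Hox gene they lie in or nearest to and are numbered from the strongest by the signal value of the list. Rank 1 is the strongest entry of a list. The sequences below are windows of 101 bp centred on the summit, with 50 bp to each side, on the plus strand of genome release 6 (dm6), read from the RefSeq genome sequence. The first set shows the strongest Hox peak and peaks 1 and 2 of the large Antp intron, which held none of the 3 letter runs searched on both strands as binding sites of Hes proteins. These were the E-box CACGTG, the class C site CACGCG and the N-box, written CACNAG.

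abd-A peak 1 (chr3R:16798829-16798929): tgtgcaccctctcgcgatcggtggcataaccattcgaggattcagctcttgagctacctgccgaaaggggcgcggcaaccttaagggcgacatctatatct
Antp peak 1 (chr3R:6914470-6914570): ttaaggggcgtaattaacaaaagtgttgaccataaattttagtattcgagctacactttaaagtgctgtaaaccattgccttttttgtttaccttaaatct
Antp peak 2 (chr3R:6920139-6920239): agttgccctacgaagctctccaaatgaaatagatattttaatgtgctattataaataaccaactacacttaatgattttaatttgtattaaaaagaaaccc

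The second set shows peaks with such a run, which stands in capitals and may be read on either strand.

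pb peak 1 (chr3R:6759651-6759751): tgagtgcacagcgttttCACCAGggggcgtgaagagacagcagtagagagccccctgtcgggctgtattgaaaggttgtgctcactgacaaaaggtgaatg
Ubx peak 3 (chr3R:16655821-16655921): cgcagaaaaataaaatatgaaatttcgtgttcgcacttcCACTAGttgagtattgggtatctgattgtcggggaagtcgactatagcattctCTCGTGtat
Scr peak 2 (chr3R:6818747-6818847): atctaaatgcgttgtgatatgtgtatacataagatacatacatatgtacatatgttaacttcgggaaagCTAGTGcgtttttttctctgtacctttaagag

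The third set shows the 4 Hox peaks that held GCGCCANCT on either strand, which stands in capitals. These letters were chosen after the printed windows had been read. They are known as the core of the recognition sequence of the insulator protein CTCF.

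Ubx peak 2 (chr3R:16748699-16748799): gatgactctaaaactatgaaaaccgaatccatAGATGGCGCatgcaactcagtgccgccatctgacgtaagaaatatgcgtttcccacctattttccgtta
Abd-B peak 2 (chr3R:16919201-16919301): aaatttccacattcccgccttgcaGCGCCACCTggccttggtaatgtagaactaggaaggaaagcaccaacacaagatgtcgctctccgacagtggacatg
Antp peak 4 (chr3R:6912388-6912488): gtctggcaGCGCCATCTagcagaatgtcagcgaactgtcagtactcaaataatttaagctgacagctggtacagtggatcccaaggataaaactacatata
abd-A peak 3 (chr3R:16834793-16834893): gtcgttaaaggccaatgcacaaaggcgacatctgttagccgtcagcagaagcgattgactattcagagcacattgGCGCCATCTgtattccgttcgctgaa

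No Hox gene had an IDR peak at its promoter. Of the 8 genes, 0 had a summit within 1000 bp of any of their 19 start sites, against 27.9% of all protein-coding genes (3891 of 13945). All 8 are at least 10 kb long, and of the 1977 protein-coding genes of that length 40.1% had an IDR peak at a start site. The nearest IDR peak to a Hox start site was Abd-B peak 5, 1429 bp upstream of one of the 6 Abd-B start sites. Over the 23 peaks, the distance from the nearest Hox start site had a median of 18320 bp and reached 87339 bp. In all, 3 peaks lay over 1 and up to 5 kb from a Hox start site, 11 over 5 and up to 20 kb, and 9 farther away.

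The replicates gave nearly the same picture at the promoters. Each replicate was also reduced to its 5164 strongest entries, called its top peaks. A top peak lay within 1000 bp of a start site at 0, 1 and 0 Hox genes in replicates 1, 2 and 3, against 28.2%, 27% and 27.4% of protein-coding genes. The 1 gene was Antp in replicate 2, with an entry at rank 3024 that lay 273 bp upstream of the third start site, the most internal of the 3.

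Below the IDR threshold, weaker entries did lie at Hox promoters. In the pooled list, which was deposited as peaks and background regions together, 6 of the 8 genes had an entry within 1000 bp of a start site, against 63.1% of all protein-coding genes. The IDR peaks are the 5164 strongest entries of the pooled list. With no IDR peak at a Hox promoter, all 12 such entries therefore had to rank below the last IDR peak. The strongest lay 264 bp upstream of Dfd at rank 5285, just outside the 5164 IDR peaks. In replicates 1, 2 and 3 the entry nearest to the Dfd start site had ranks 5459, 8279 and 5602. The entry 212 bp upstream of the third Antp start site followed at rank 5386 in the pooled list. It had counterparts at ranks 3024 and 5479 in replicates 2 and 3, while the nearest entry of replicate 1 lay 2391 bp away. At lab the best pooled entry near a start site had rank 11538, at abd-A 12477, at Abd-B 17117 and at Ubx 19525. The genes pb and Scr had none in the pooled list. Each had such an entry in 1 replicate, pb at rank 27488 of replicate 3 and Scr at best at rank 20476 of replicate 1. The plot of rank against distance shows the 12 pooled entries alone in the promoter window.

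**Figure D1:**
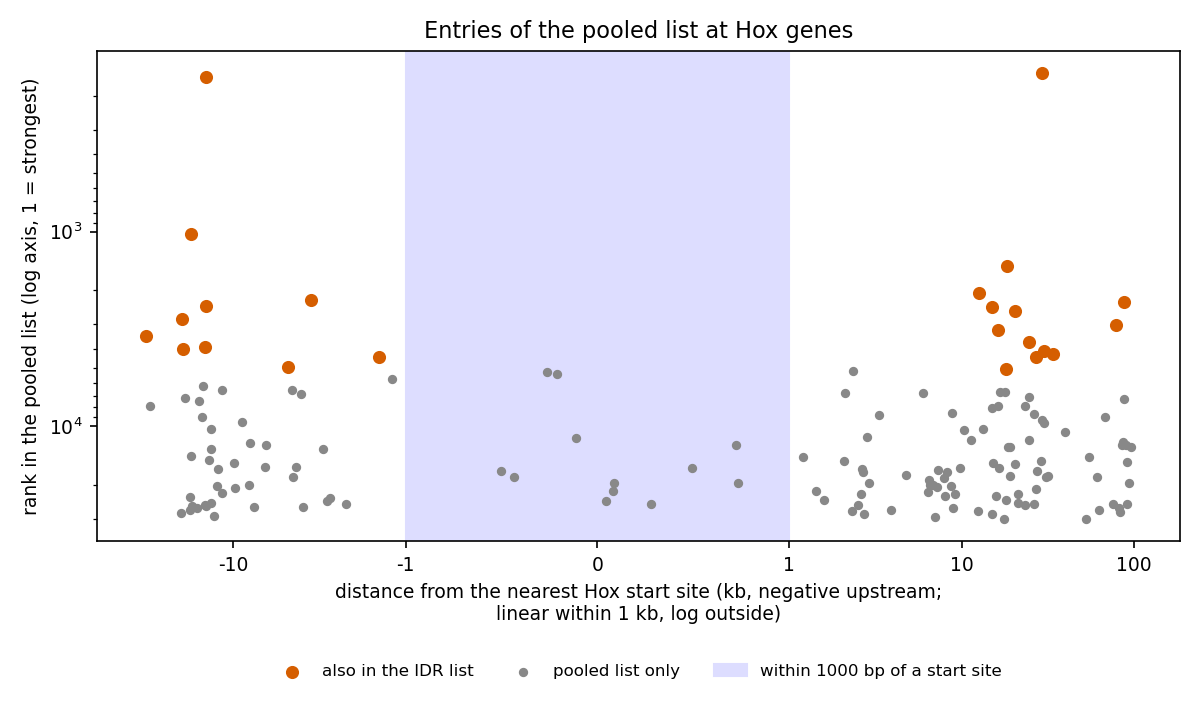
Entries of the pooled list at Hox genes, with the distance from the nearest Hox start site in kb (negative upstream, linear within 1 kb and logarithmic outside) and the rank in the pooled list on a log axis, strongest at the top. Orange points are the 23 entries that are also IDR peaks, and all 12 points in the shaded promoter window are grey and lie below rank 5164.

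The IDR peaks lay inside introns and in the flanks. Inside the Hox genes were 9 of the 23 peaks, in 4 of the 8 genes, while 44.9% of protein-coding genes of at least 10 kb had an IDR peak in the body. Antp held 5, Ubx 2, pb 1 and Abd-B 1. With the flanks of 20 kb, 7 of 8 genes had an IDR peak, all but lab, against 81% of all protein-coding genes. Both shares stand close to those set beside them. The 81% covers genes of every length, however, while all 8 Hox genes are at least 10 kb long.

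By the place of the summit, 6 of the 23 peaks fell in the class promoter (at most 500 bp between the summit and the nearest start site, whatever the gene), against 55.5% of all IDR peaks. The class intron held 12 Hox peaks, or 52.2%, against 30.6% of all IDR peaks. The class intergenic held 4, against 11.5% of all IDR peaks, and 1 summit lay in an exon. Inside the Hox genes 8 of 9 peaks were intronic, and all 6 promoter peaks lay in the flanks, at start sites of other genes. No start site of a Hox gene had an IDR peak within 1000 bp. The promoter class was thus carried by bcd, CG10324, modSP, CG18622 with 2 overlapping peaks, and the pair lncRNA:CR45221 and EMC2B. For 18 of the 23 peaks the nearest start site of any kind belonged to a gene other than a Hox gene.

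**Figure D2:**
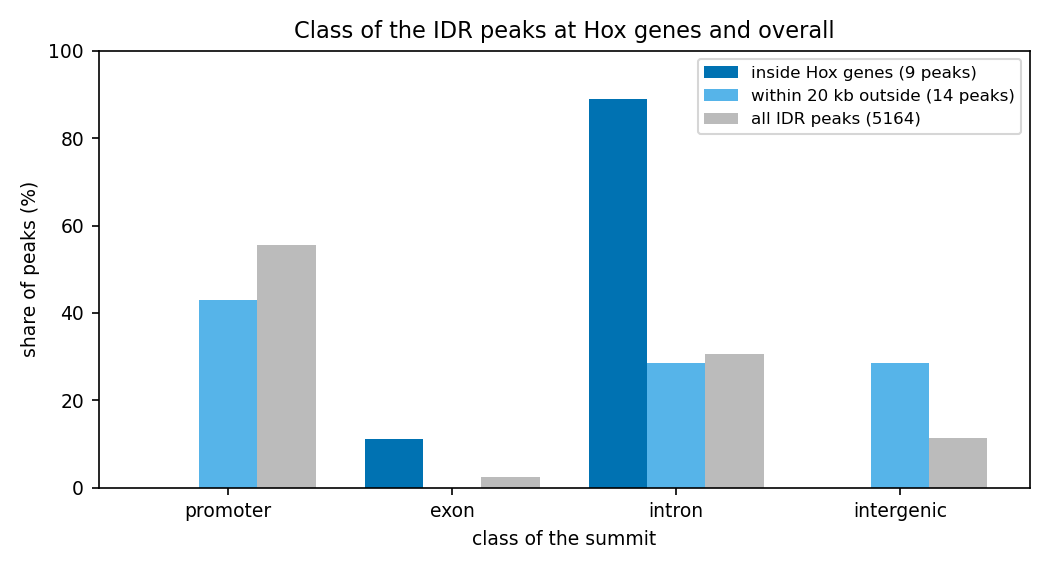
Share in percent of IDR peaks by class of the summit, for the 9 peaks inside Hox genes, the 14 within 20 kb outside them and all 5164 IDR peaks. Inside Hox genes the bars show introns with 8 peaks and an exon with 1, and in the flanks 6 promoter, 4 intronic and 4 intergenic peaks.

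**Figure D3:**
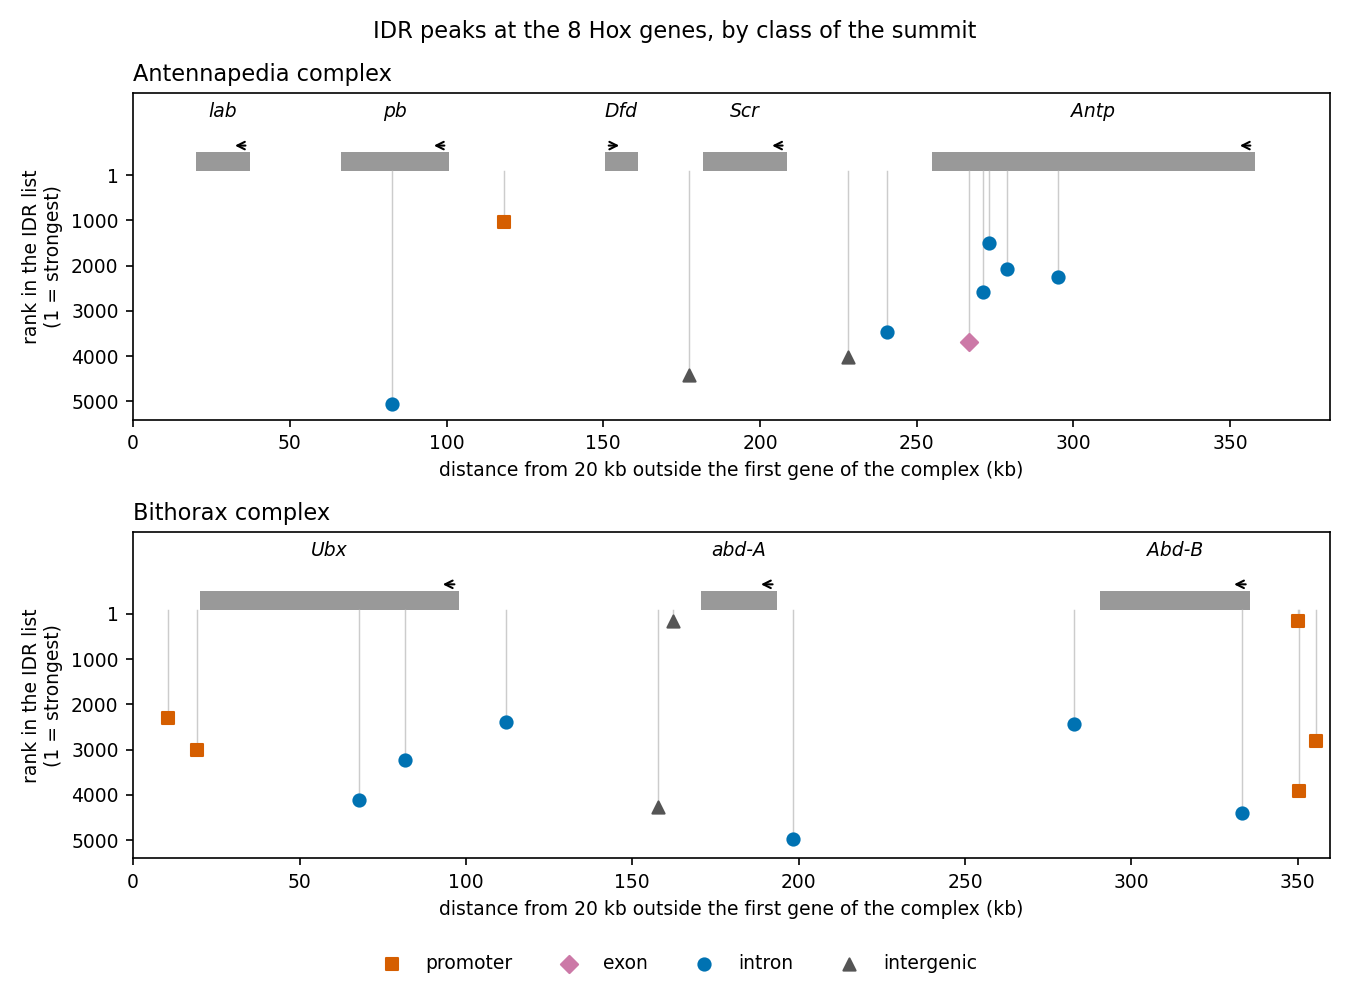
IDR peaks of the Antennapedia complex (top) and the bithorax complex (bottom), with the distance in kb from a point 20 kb outside the first gene on the x axis and the rank in the IDR list on the y axis, strongest at the top. Grey bars are Hox gene bodies, arrows show the direction of transcription, and colours give the class; 5 peaks stand inside Antp, and the strongest peaks, at ranks 153 and 160, stand beside abd-A and Abd-B.

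Most Hox peaks were of middling or low rank. Their median rank was 3015, from 153 to 5059, against 2582.5 over all 5164 IDR peaks. The 9 peaks inside the genes had a median of 3223 and started at rank 1494, and the 14 flank peaks had a median of 2912. The median of all intronic IDR peaks was 2700.5. Per 100 kb, Hox gene bodies held 2.67 IDR peaks, against 2.98 in the bodies of protein-coding genes of at least 10 kb and 3.86 over the whole arms. With the flanks of 20 kb, the Hox genes held 3.67 per 100 kb.

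For 12 of the 23 peaks, the top peaks of all 3 replicates held a summit at most 150 bp away (52.2%), against 66.9% of all IDR peaks. Another 9 were among the top peaks of 2 replicates and 2 of 1 replicate. When all entries of each replicate were allowed, 22 of 23 peaks were found in all 3. The exception was Antp peak 5, which replicate 1 lacked. Each replicate by itself gave a like total, with 21, 24 and 21 top peaks at Hox genes in replicates 1, 2 and 3 (mean 22 ± 1.73, SD, n = 3). Inside the genes there were 7, 11 and 10 (mean 9.33 ± 2.08, SD, n = 3). Keeping only IDR peaks matched in the top peaks of both other replicates left 17 of the 23 without replicate 1, 14 without replicate 2 and 14 without replicate 3.

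**Figure D4:**
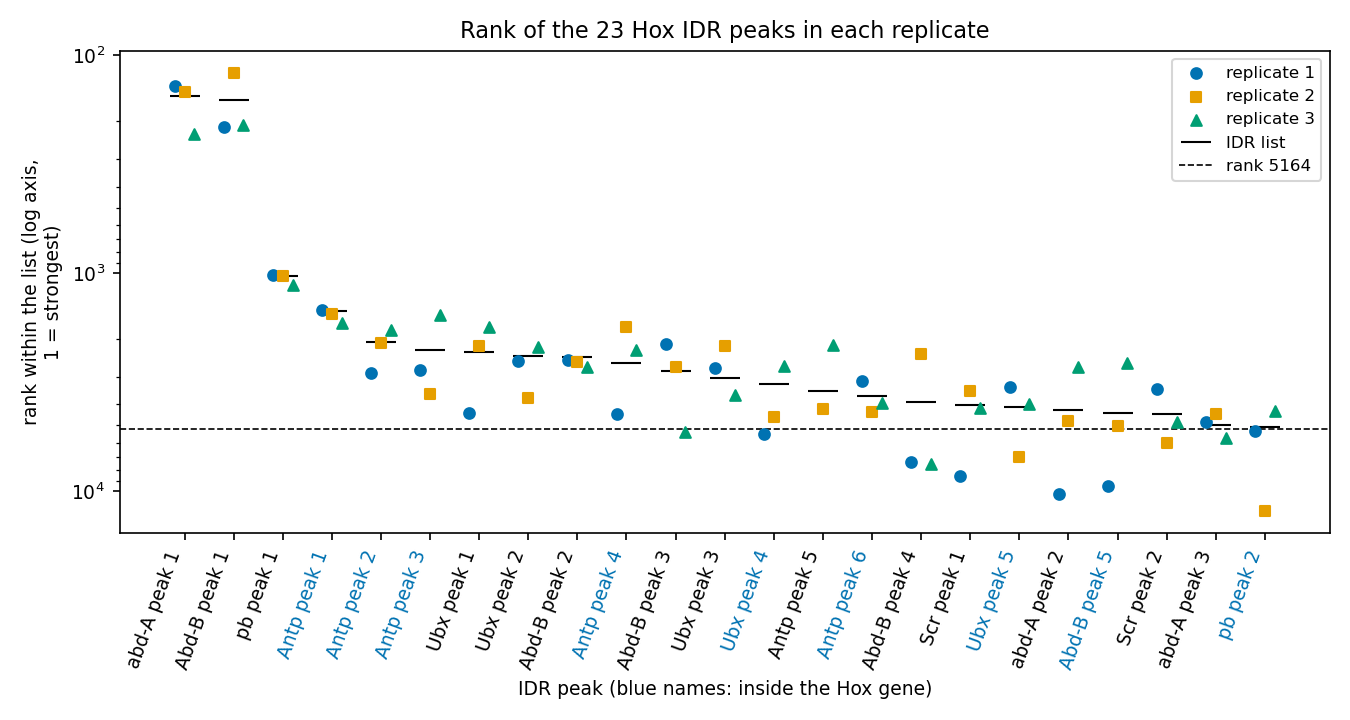
Rank of each of the 23 Hox IDR peaks in replicates 1 to 3 (coloured points) and in the IDR list (black bars), on a log axis with the strongest at the top; peaks run from the strongest to the weakest. The first 4 peaks rank between 120 and 1689 in every replicate, and points below the dashed line at 5164 are outside a replicate's top peaks.

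In the Antennapedia complex, the head genes had few peaks. The gene lab, which acts in the head and the midgut, spans 17.2 kb (FBgn0002522, chr3R:6661427-6678590) and had no IDR peak within 20 kb. Its pooled entries numbered 9 in the body and 19 with the flanks, the best at rank 5699. Replicates 1, 2 and 3 had 2, 1 and 0 top peaks at lab.

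The gene pb, which specifies the mouthparts, spans 34.3 kb (FBgn0051481, chr3R:6707800-6742063). Its pb peak 2, in an intron 18010 bp downstream of the start site (summit 6724053), was the weakest Hox peak at rank 5059. In replicates 1, 2 and 3 it had ranks 5301, 12335 and 4299, so only replicate 3 had it among its top peaks. The stronger pb peak 1 (summit 6759701) was 17638 bp upstream of pb but 235 bp upstream of bcd, the maternal gene of the anterior body pattern that lies in the complex. It had rank 1032, and ranks 1024, 1025 and 1137 in the 3 replicates, which all placed it among their top peaks.

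Dfd, a gene of the mandible and maxilla, spans 10.6 kb (FBgn0000439, chr3R:6791836-6802428) and had no IDR peak in its body. Scr, a gene of the labium, the first thoracic segment and the salivary glands, spans 26.9 kb (FBgn0003339, chr3R:6823120-6849981) and had none either. Both had Scr peak 2 within 20 kb, an intergenic peak between them at summit 6818797, 4323 bp from the end of Scr. It had rank 4415, and ranks 3414, 5990 and 4843 in replicates 1, 2 and 3. Scr peak 1, at summit 6869532, was intergenic too, 19551 bp upstream of Scr and 5208 bp downstream of the start site of ftz. It had rank 4022, and ranks 8575, 3480 and 4152 in the 3 replicates, with replicate 1 the lowest.

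Antp, which acts in the thorax and specifies the leg-bearing segments, had the most peaks of the 8 genes. It spans 103 kb (FBgn0260642, chr3R:6896253-6999228) and is transcribed from 3 start sites in 12 annotated transcripts. Its 5 body peaks lay within 28110 bp of each other, and they gave 4.86 IDR peaks per 100 kb of the gene. Of the 83 protein-coding genes of at least 100 kb, 18 held 5 or more IDR peaks in the body and Antp was one of them. Replicates 1, 2 and 3 had 6, 6 and 5 top peaks in the body.

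The peaks of Antp fell at the same places in each replicate. Antp peak 1 (summit 6914520) had rank 1494, and ranks 1480, 1542 and 1689 in replicates 1, 2 and 3. Antp peak 2 (summit 6920189) had rank 2078, and ranks 2862, 2092 and 1814. Antp peak 4 (summit 6912438) had rank 2572, and ranks 4422, 1773 and 2254. These 3 peaks shared one intron of 21 kb (chr3R:6910472-6931518), which was intronic in all 12 transcripts. Antp peak 3 (summit 6936376) lay 3536 bp upstream of the third start site and in an intron of 6 of the 12 transcripts. It had rank 2250, and ranks 2778, 3597 and 1549. Antp peak 6 (summit 6908266) was the only exonic Hox peak, and in 11 of the 12 Antp transcripts the same place is intron. It had rank 3678, and ranks 3139, 4335 and 3961. The 5 body peaks were thus in the top peaks of all 3 replicates. The annotated gene CG46458 overlaps this stretch of Antp on the same strand, so the peaks also lie inside it.

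Outside Antp, 14428 bp past its end, Antp peak 5 (summit 6881825) lay in lncRNA:CR44931 at rank 3462. Replicate 1 had no entry there, and replicates 2 and 3 had ranks 4188 and 2142. It was the only Hox IDR peak without an entry in one of the replicates.

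In the bithorax complex, as in the Antennapedia complex, the peaks lay between the Hox genes as well as in them. Ubx, a gene of the posterior thorax and the anterior abdomen, spans 77.8 kb (FBgn0003944, chr3R:16656623-16734426). Ubx peak 4 (summit 16718191) lay in an intron of 14.6 kb, 16235 bp downstream of the start site, at rank 3223. It had ranks 5474, 4565 and 2679 in replicates 1, 2 and 3. Ubx peak 5 (summit 16704382) lay farther downstream in an intron of 51.5 kb at rank 4120, with ranks 3321, 6969 and 4003. Each of these body peaks was among the top peaks of 2 replicates.

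Upstream of Ubx, Ubx peak 2 (summit 16748749) lay 14323 bp from the start site inside lncRNA:bxd, a non-coding gene transcribed from the regulatory region of Ubx. It had rank 2400, and ranks 2532, 3757 and 2177 in replicates 1, 2 and 3. Past the other end of Ubx, Ubx peak 1 (summit 16647087) lay 83 bp from the start site of CG10324 at rank 2302, with ranks 4382, 2154 and 1769. Ubx peak 3 (summit 16655871) lay 209 bp from the start site of modSP, a serine protease gene of the immune response, at rank 3015, with ranks 2720, 2164 and 3607. These last summits were 87339 and 78555 bp from the Ubx start site, so the distance rule ties them to the end of Ubx, not to its promoter.

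The gene abd-A, which acts in the abdominal segments, spans 22.8 kb (FBgn0000014, chr3R:16807214-16830049) and had no IDR peak in its body. The strongest of all Hox peaks, abd-A peak 1 (chr3R:16798726-16799043, summit 16798879), was intergenic, 8335 bp past the end of abd-A and 1721 bp upstream of lncRNA:CR45750. It had rank 153, and ranks 138, 147 and 229 in replicates 1, 2 and 3. Of the IDR list, 2.94% ranked above it. Close by, abd-A peak 2 (summit 16794400) had rank 4265 and differed more between replicates, with ranks 10342, 4768 and 2681. The nearest coding start site to both belonged to Glut3, a sugar transporter gene, at 10568 bp and 6089 bp. Upstream of abd-A by 4794 bp, abd-A peak 3 (summit 16834843) had rank 4980, and ranks 4806, 4452 and 5708. It lay in an intron of lncRNA:iab8 and MSAmiP, both annotated between abd-A and Abd-B.

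Abd-B, the gene of the posterior abdomen, spans 45 kb (FBgn0000015, chr3R:16927212-16972236) with 6 start sites. Its 1 body peak, Abd-B peak 5 (summit 16970003), was intronic in 1 of 10 transcripts and had rank 4402. It had ranks 9443, 5032 and 2589 in replicates 1, 2 and 3. Abd-B peak 2 (summit 16919251), past the end of the gene in lncRNA:iab8, was steadier. It had rank 2435, and ranks 2491, 2550 and 2699.

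The remaining peaks assigned to Abd-B lay at start sites of its neighbours. Abd-B peak 1 (chr3R:16986496-16986805, summit 16986657) lay 193 bp downstream of a start site of CG18622 and was the other peak of high rank, at 160, with ranks 213, 120 and 208 in replicates 1, 2 and 3. The region of Abd-B peak 4 (chr3R:16986654-16987069, summit 16986862) overlaps that of Abd-B peak 1, also at a start site of CG18622. Abd-B peak 4 had rank 3906, and ranks 7326, 2359 and 7508, so only replicate 2 had it among its top peaks. Abd-B peak 3 (summit 16991994), 116 bp from the start site of EMC2B, had rank 2809, and ranks 2105, 2683 and 5353. It was just inside the limit at 19758 bp, and the next IDR peak, at rank 2911, was outside it at 24001 bp.

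The number of top peaks at each gene varied most between replicates at Abd-B. Antp had 6, 7 and 6 top peaks in the body or within 20 kb in replicates 1, 2 and 3, or 6.33 ± 0.577 (SD, n = 3). Abd-B had 3, 7 and 4, or 4.67 ± 2.08 (SD, n = 3). Ubx had 4, 4 and 5, and abd-A 3, 3 and 2. Of the 4 genes lab, pb, Dfd and Scr, none had more than 2 in any replicate. The counts of Antp did not overlap those of these 4 genes or of Ubx and abd-A, whereas those of Abd-B overlapped the counts of Antp, Ubx and abd-A. How often the counts of other genes fail to overlap was not counted. The stretches compared are also of unlike length. Antp spans 103 kb, Ubx 77.8 kb, and lab, pb, Dfd and Scr from 10.6 to 34.3 kb, each with flanks of 20 kb. Longer genes offer more room for peaks, and the part of length in this order was not tested.

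**Figure D5:**
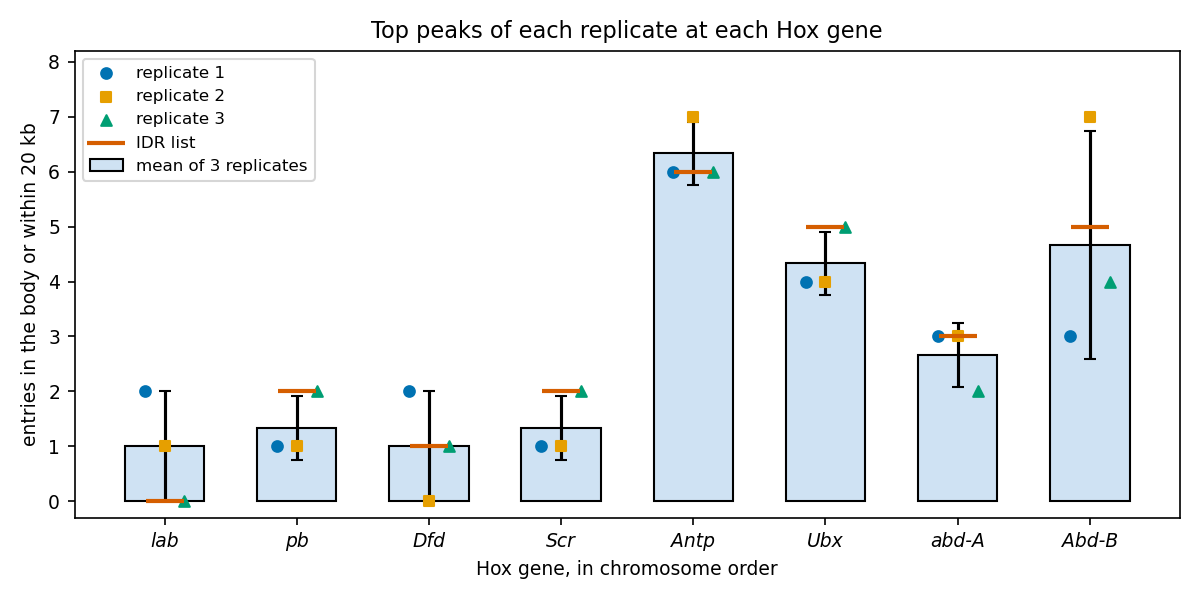
Number of top peaks in the body or within 20 kb of each Hox gene, in chromosome order. Bars are means of the 3 replicates with SD as error bars, points are replicates and orange lines are IDR peaks; Antp has 6 to 7 in each replicate, and Abd-B ranges from 3 to 7.

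Among the letter runs known from Hes binding sites, CACGTG was found in 0 of the 23 Hox windows, CACGCG in 1 and CACNAG in 5. Together 6 of 23 windows, or 26.1%, held at least one of the 3, against 13.8% of all IDR peaks. Of these 6, 4 were promoter peaks of other genes, among them both overlapping peaks at CG18622. Among the 16 intronic and intergenic Hox peaks 2 held one, Abd-B peak 2 and Scr peak 2, against 11.6% of all intronic and intergenic IDR peaks. None of the peaks inside a Hox gene was among the 6. The wider E-box run CANNTG, which includes CACGTG, stood in 12 of 23 windows, against 37.8% of all.

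The letters GCGCCANCT, chosen after the windows were read, stood in 4 of 23 Hox windows, or 17.4%, against 1.74% of all IDR peaks. All 4 were intronic, of the 16 intronic and intergenic Hox peaks, against 2.12% of such peaks over the genome. As printed above, they were Antp peak 4, Ubx peak 2, abd-A peak 3 and Abd-B peak 2, which lie in or beside 4 different Hox genes. A run of 9 letters chosen in this way describes these windows and does not show that CTCF binds there.

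Other runs were searched on both strands as descriptions. GAGAG, read by the GAGA factor, stood in 6 of 23 Hox windows, against 11.2% of all IDR peaks. GCCAT, the core read by the Polycomb recruiter Pho, stood in 6 of 23, against 15.9%, and it can overlap GCGCCANCT. TATCGA, read by DREF, stood in 0 of 23, against 10.5% of all and 3.54% of intronic and intergenic IDR peaks. TAATTA, a homeodomain core, stood in 2 of 23, against 7.15%, and CAGGTA, read by Zelda, in 2 of 23, against 2.19%. The median share of A and T in the windows was 63.4% in both the Hox peaks and all IDR peaks.

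Genes that act with or upon the Hox genes were read by the same promoter rule of 1000 bp. Of the 4 other homeobox genes in the Antennapedia complex, bcd had an IDR promoter peak, and ftz, zen and zen2 had none. This is 25%, against 27.9% of all protein-coding genes. Of 6 genes of Hox cofactors, 0 had one, against the same 27.9%. Among these, hth, whose product brings the cofactor Exd into the nucleus, held 7 IDR peaks in its body and 11 within 20 kb. The gene exd had 1 within 20 kb, tsh 1, disco-r 6, and tio and disco 0. In the body, disco-r held 1, and exd, tsh, tio and disco 0. Like Antp, hth had peaks inside the gene and none at its start sites. The same held for trx of the Trithorax group, with 5 in its body. Peaks in the body stood at 44.9% of protein-coding genes of at least 10 kb. How many of these lack a promoter peak was not counted.

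Of 12 known targets of Hox proteins, 2 had an IDR promoter peak, or 16.7%, against 27.9% of all protein-coding genes. They were fkh, a salivary gland factor activated by Scr, at rank 482, and rho, which promotes EGF signalling, at rank 4032. In replicates 1, 2 and 3 the fkh peak had ranks 389, 703 and 491. Of 4 cell death genes, 1 had a promoter peak, or 25%, against the same 27.9%. It was hid at rank 510, with ranks 878, 631 and 325. The gene rpr, which stands in both lists, had none.

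Among genes of regulators that maintain Hox expression, many had a promoter peak. Of 19 Polycomb group genes 12 had one, or 63.2%, against 0 of 8 Hox genes and 27.9% of all protein-coding genes. The strongest were at ph-p (rank 7), Sfmbt (rank 767) and ph-d (rank 1064). Of 12 Trithorax group genes 7 had one, or 58.3%, against the same 27.9%. Strongest were brm (rank 360), Trl, the gene of the GAGA factor (rank 498), and lolal (rank 1242). Of 6 genes of insulator proteins 4 had one, or 66.7%, against the same 27.9%. These were Cp190 (rank 297), CTCF (rank 2410), pita (rank 3494) and mod(mdg4) (rank 3636). The mod(mdg4) peak had ranks 1800, 26184 and 3505 in replicates 1, 2 and 3, so replicate 2 lacked it among its top peaks. Some other promoter peaks counted here were also weak in a replicate. The pho peak had ranks 3805 and 10488 in replicates 1 and 2 and no match in replicate 3. Su(z)2 had ranks 4524, 14699 and 3995, and osa 3861, 5807 and 10585. The peaks at ph-p, Sfmbt, ph-d, brm, Trl and lolal were among the top peaks of all 3 replicates. Of 6 non-coding genes of the complexes, 0 had a promoter peak, against 12% of the 3261 genes annotated as ncRNA. Among the 6 were lncRNA:bxd, lncRNA:iab8, mir-iab-4 and mir-10.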

How the data were processed

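The 3 samples are biological replicates of ChIP-seq on dpn-eGFP embryos, with chromatin sheared to 200-800 bp per the labels. The authors deposited peak lists for dm6 and dm3; the dm3 lists were not used here. The aligner and peak caller are not given in the sources used here. Per the deposited descriptions of the files, regions were called with a control alignment for single replicates and for the replicates pooled, and these lists were the input to IDR; the control was not analysed here. The signal value of the deposited lists (column 7) served to order the entries of one list. The −log10 of the q-value in the deposited lists (column 9) was 4.05 for every IDR peak and was not used to rank. A further column of the deposited lists, of another unit, places the summit in bp from the region's start. No read counts are given, so no depth per sample and no interval for counting error can be stated.

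Summits were placed on the Ensembl release 115 genes, without transposable elements; the NCBI models of the 8 Hox genes had the same ends and start sites. No entry lay past the end of an arm of genome release 6. The promoter of a gene was its start sites with 1000 bp to each side. Summits were classed as promoter (up to 500 bp from the nearest start site), exon, intron or intergenic. Replicates were matched by summits within 150 bp, with the 5164 strongest entries of each as its top peaks. Counting was tested on simulated data. Python 3.11.15, numpy 2.4.6, pandas 2.3.3 and matplotlib 3.10.9 were used.

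The genes and lists were chosen with earlier results of these data known. Named are all Hox genes, their homeobox neighbours and cofactors, the genes with the start site nearest to each of the 10 strongest Hox peaks, and in every other list the genes of its best promoter peaks, up to 3; mod(mdg4) was named after its value was seen. All listed symbols matched the annotation. Alternatives changed the distance around the genes, the promoter window, the list, the matching and the sequence window, and left out each replicate.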

Additional observations from a re-analysis of the deposited data

How the results depend on the processing

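The number of IDR peaks at Hox genes, 23 as reported, followed the distance around the genes, with 9 in the bodies alone, 12 within 5 kb and 15 within 10 kb. It was 10 among the strongest 2582 IDR peaks and 158 in the whole pooled list. Leaving out a replicate gave 14 to 17, by construction fewer, since a match in the top peaks of both others was then required. Without peaks at start sites of any gene, an alternative chosen after seeing the data, 17 were left. The number of Hox genes with a promoter peak, 0 as reported, was 1 at 2000 bp and 6 in the whole pooled list. At 500 bp, among the strongest 2582 and without each replicate it was 0 by construction, since these settings could only lower it. The number matched in all 3 replicates, 12 as reported, was 8 at 50 bp and 13 at 300 bp, 20 in the top 10000 entries and 22 in all entries. Windows of 25 bp on either side of the summit held a Hes run in 3 peaks, against 6 at 50 bp. The class counts did not move under the 3 other promoter rules. No paired analysis was possible because the series has 1 group. With 8 genes and 23 peaks, 1 peak moves a share by 4.35 percentage points, and ranks of weak entries differ widely between replicates.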

Other observations

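The bithorax complex held 2 more IDR peaks that lay over 20 kb from every Hox gene and so were not counted among the 23. The stronger (chr3R:16869322-16869425, summit 16869403) lay inside lncRNA:iab8 and MSAmiP, between abd-A and Abd-B, at rank 1723. It had ranks 3796, 1398 and 1251 in replicates 1, 2 and 3. The other (chr3R:16769361-16769776, summit 16769569) lay inside lncRNA:bxd, 3620 bp from its start site, at rank 3415, with ranks 4211, 2336 and 5870. With them, the non-coding gene lncRNA:iab8 held 3 IDR peaks in its body and lncRNA:bxd 2. From the first to the last Hox gene, the bithorax complex (316 kb) held 10 IDR peaks, or 3.17 per 100 kb, and the Antennapedia complex (338 kb) also held 10, or 2.96 per 100 kb.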
